A study of Homo sapiens with 12 samples.

Results

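The loss of mRNAs in otherwise untreated HEK293T cells during a 2 h block of transcription was read by comparing vehicle-treated libraries at 2 h with vehicle-treated libraries at 0 h, over every gene whose level averaged 1 FPKM or more across these 6 libraries (FPKM counts sequenced fragments, scaled to transcript length and library size, and so is a level per length). This rule kept 12166 of 23615 listed genes, 11449 genes fell short of it and 5262 were listed at 0 in all 6 libraries. Just inside it were HLA-F-AS1, DISC1 and A1BG at mean levels of 1.00007, 1.00057 and 1.00212 FPKM, and just outside were RAPGEFL1, ZNF25 and STAC3 at 0.997994, 0.997354 and 0.997205 FPKM. Among the genes kept, 490 reached 1 FPKM on average only at 0 h and 52 only at 2 h, so their presence rests on the time at which they were higher.

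The study asked how CP25, an inhibitor of the decapping enzyme DCP2, alters mRNA half-lives, and it holds 12 libraries, of which the 6 without CP25 are used here. HEK293T cells derive from embryonic human kidney and express a viral protein, the large T antigen of SV40, and the labels call them epithelial and give 10 to 20 passages. All 6 libraries came from cells given the peptide storage buffer (vehicle) for 18 h. Actinomycin D, at 5 µg/mL, was then present for 0 h (3 libraries) or 2 h (3 libraries) before poly(A) RNA was sequenced. The labels name the libraries replicates without saying that they came from separate cultures, so their spread may be technical, and the cells belong to a single transformed line.

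Actinomycin D intercalates into DNA and stops RNA polymerases, so that an mRNA made before the block is not replaced and its level afterwards reflects how fast it is degraded. In mammalian cells most mRNAs are degraded by shortening of the poly(A) tail, followed by removal of the cap and digestion from the 5′ end, or by the exosome from the 3′ end. Messages for transcription factors and signalling regulators are known for rapid turnover, and messages for ribosomal and metabolic enzymes are known for long lives. Because each library is scaled to its own total, a stable mRNA gains share when others are lost, and the changes below are therefore relative to the median gene, not absolute amounts of RNA per cell.

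The libraries matched the labelled line only in part by its markers. Of 12 marker genes listed for HEK293 cells, 10 passed 1 FPKM, with vimentin (VIM) highest at a mean of 214 FPKM and the nuclear receptor NR0B1 at 0 in all 6 libraries. The summed level of this list was 292 to 364 FPKM at 0 h and 322 to 411 FPKM at 2 h. Of 11 mature kidney genes only LRP2 and PODXL passed, with UMOD and SLC34A1 among those at 0. None of 8 blood genes passed, the highest being CD68 at 0.676 FPKM, with CD3E and HBB at 0, and 2 of 9 fibroblast and endothelial genes passed (COL1A1 and COL3A1). Depth, estimated from the steps between low values, was about 13250000 to 20090000 fragments at 0 h and 22140000 to 29210000 at 2 h, so the libraries at 2 h were the deeper ones. The estimate is rough, since 59.3% to 66.0% of the low values came within 0.12 of a whole number of fragments. Libraries of 1 time correlated at 0.970 to 0.974 (0 h) and 0.987 to 0.989 (2 h) across genes on the log2 scale, and libraries of different times at 0.944 to 0.961. The 2 times are in tables that were scaled separately, so time and table cannot be told apart and no test was made between them. An exact permutation test of 3 against 3 libraries could not go below p = 0.1.

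A gene was counted as fallen or risen only when its mean log2(FPKM + 1) at 2 h differed from that at 0 h by at least 1.5-fold relative to the median gene and its 3 libraries at 2 h did not overlap the 3 at 0 h after scaling. By this rule 1592 genes (13.1%) fell and 481 genes (3.95%) rose relative to the median gene. Many of the genes that passed the filter only through their 0 h level are among the fallen. Likewise, some of those that passed only through their 2 h level are among the risen. Both shares therefore depend in part on the filter. At a 2-fold limit 559 genes (4.59%) were lower and 33 genes (0.271%) were higher. The downward tail was the longer: the lowest 5% of genes lay at or below -0.999 on the log2 scale and the highest 5% at or above 0.56, with 25% of genes below -0.32 and 25% above 0.26. The median standard error of a gene's change was 0.096. Without regard to size, the libraries did not overlap for 3791 genes lower at 2 h (31.2%) and for 3696 genes higher (30.4%).

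The number that rose depended on the scaling and on single libraries far more than the number that fell. As deposited, without scaling, the median gene stood at 88.3% of its 0 h level (a log2 shift of -0.18), and on those values 2386 genes fell and 56 rose, so that the lower share of calls was 97.7% against 76.8% after scaling. Leaving out library 1 at 0 h gave 288 risen genes and leaving out library 2 at 0 h gave 734, against 481 with all 6, while the number fallen stayed between 1475 and 1692. At the 2-fold limit, the 33 higher genes became 21 without library 1 at 0 h and 17 without library 3 at 0 h. With the trend on transcript length and GC content removed, 1431 genes fell and 138 rose, a lower share of 91.2%.

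**Figure D1:**
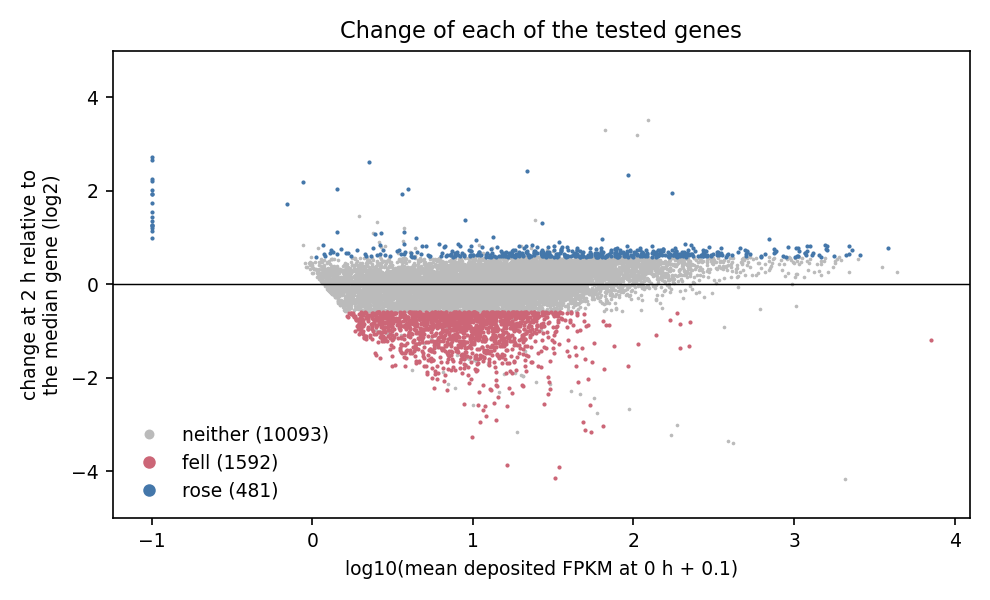
Each point is 1 of the 12166 tested genes, with its mean deposited level at 0 h on the horizontal axis (log10 of FPKM + 0.1) and its change at 2 h relative to the median gene on the vertical axis (log2). Fallen genes (1592) lie mostly at low and middle levels and risen genes (481) extend to the highest levels; points at the left margin are genes listed at 0 in all 0 h libraries, and 1 gene lies beyond the vertical range.

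Level and direction went together. Among the 354 genes of at least 200 FPKM, 115 rose (32.5%) and 1 fell, with a median change of 0.52. The fallen gene was BCYRN1, a primate noncoding RNA transcribed by RNA polymerase III, at 5320, 8031 and 7987 FPKM before the block and 2909, 2716 and 2321 FPKM after it. Among the 2288 genes of 5 to 10 FPKM, 534 fell (23.3%) and 36 rose (1.57%), with a median of -0.20. The median standard errors of these classes were close, at 0.105 and 0.0967. Across the 11388 protein-coding genes the Spearman correlation of the change with the level at 0 h was 0.40, a description in which all genes share the same 6 libraries and in which the 0 h level enters both measures. The part of level in the differences between gene groups was not tested.

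Among well-expressed genes not singled out in an earlier account of these data, the 15 lowest included SERTAD3, HES1, CITED2, SNAI2 and DLX2. SERTAD3, a SERTA-domain transcription cofactor, was at 11.5, 11.9 and 12.4 FPKM at 0 h and at 0.918, 0.458 and 0.648 FPKM at 2 h. All 3 libraries at 2 h lay far below the lowest at 0 h, and the change relative to the median gene was -2.82 ± 0.12 (log2, SE, n = 3 and 3). HES1, a helix-loop-helix repressor downstream of Notch, went from 14.03, 18.1 and 16.4 FPKM to 1.75, 1.10 and 1.79 FPKM. CITED2, which binds the coactivators CBP and p300, went from 21.7, 31.9 and 28.7 FPKM to 3.36, 2.33 and 4.02 FPKM. For both genes the groups stood apart, with changes of -2.60 ± 0.17 and -2.57 ± 0.24, and 9.53% of the deposited HES1 level and 11.8% of the CITED2 level were left. SNAI2, a zinc-finger repressor of epithelial genes, fell by 2.16 and the homeobox gene DLX2 fell by 2.19 on the log2 scale.

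FBXO5, TRIB1, SPRY1, PIM3, GAS1 and IER5 belonged to the same 15. FBXO5, the inhibitor that holds the anaphase-promoting complex in check, was the most abundant of these, at 50.9, 56.1 and 52.6 FPKM at 0 h and 6.19, 6.92 and 7.64 FPKM at 2 h. TRIB1, a pseudokinase that guides a ubiquitin ligase to its substrates, went from 10.6, 10.7 and 10.4 FPKM to 0.635, 0.839 and 0.779 FPKM. The changes were -2.58 ± 0.08 for FBXO5 and -2.59 ± 0.05 for TRIB1, with no overlap between times. SPRY1, a feedback inhibitor of receptor tyrosine kinase signalling, was more variable before the block (7.88, 13.8 and 10.8 FPKM) and fell to 1.18, 0.619 and 1.73 FPKM. The kinase PIM3 fell by 2.19, GAS1, a membrane co-receptor for Hedgehog ligands, fell by 2.23, and the immediate-early gene IER5 fell by 2.22 on the log2 scale.

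CLK1, PPP1R10 and HOXA6 were also among the lowest 15. CLK1, a kinase that phosphorylates SR splicing factors, went from 32.8, 28.3 and 26.0 FPKM to 3.97, 3.85 and 4.85 FPKM. PPP1R10, a nuclear subunit that targets protein phosphatase 1, went from 30.4, 29.2 and 30.9 FPKM to 4.38, 5.36 and 4.63 FPKM. In both genes the spread within a time was small beside the distance between times, with changes of -2.34 ± 0.13 and -2.25 ± 0.08. The homeobox gene HOXA6 fell by 2.27 on the log2 scale. All 15 genes kept the call under each of the 17 alternative settings and omissions of libraries.

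**Figure D2:**
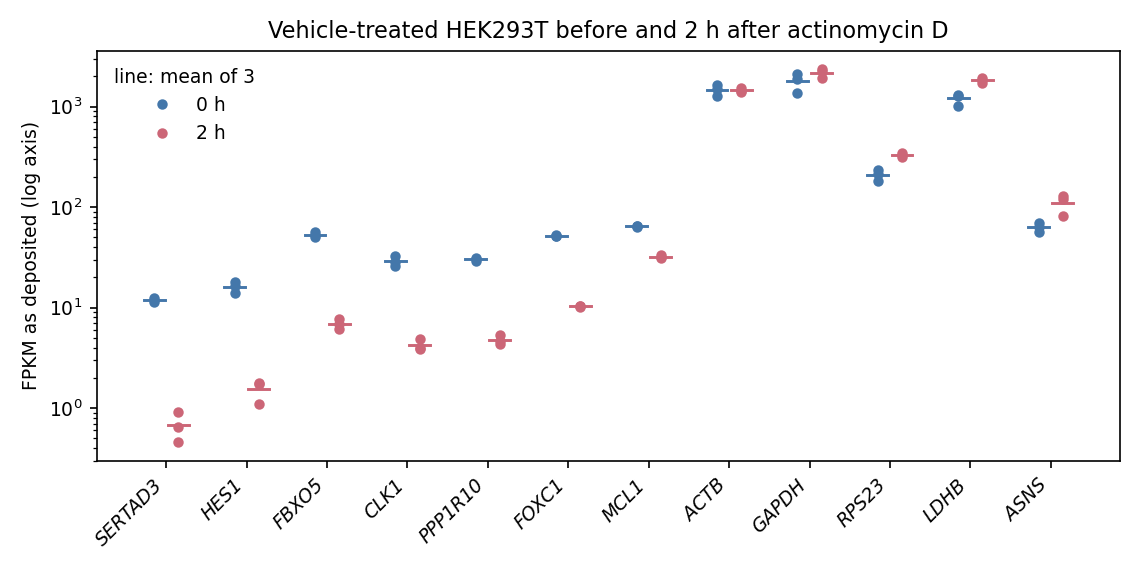
Deposited FPKM of 12 genes in each of the 6 libraries on a log axis, with 0 h in blue, 2 h in red and a short line at the mean of 3 libraries. The genes on the left, from SERTAD3 to MCL1, have all 2 h points below all 0 h points; ACTB and GAPDH overlap, and RPS23, LDHB and ASNS have all 2 h points above.

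Genes that are often used to follow such experiments framed this range. MYC changed by -3.03 ± 0.35 and JUN by -2.95 ± 0.37 relative to the median gene. NFKBIA changed by -2.69 and IER2 by -1.73, whereas FOS was not tested at a mean of 0.158 FPKM. ACTB, cytoplasmic beta-actin, was at 1265, 1517 and 1641 FPKM at 0 h and 1401, 1522 and 1446 FPKM at 2 h. The ACTB groups overlapped as deposited and the change of 0.20 ± 0.11 did not meet the rule. GAPDH differed by 0.50 ± 0.20, with overlapping deposited values from 1384 to 2103 FPKM at 0 h and from 1915 to 2350 FPKM at 2 h, and DCP2 itself differed by 0.16.

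Families of transcription factors were low as groups, though each held members that did not meet the rule. The lists named here were chosen with earlier results of these data known, so their counts are descriptions, to be read beside 13.1% fallen and 3.95% risen over all genes and a median change of 0. Of 7 tested SOX factors, which set cell fate through a DNA-bending domain, 6 fell, with a median of -1.13. SOX4 went from 22.7, 23.4 and 23.9 FPKM to 6.01, 5.29 and 5.95 FPKM, and the stem cell factor SOX2 from 7.30, 5.34 and 6.10 FPKM to 1.05, 1.06 and 1.02 FPKM. SOX8 was the exception at 2.13, 2.34 and 2.59 FPKM before and 1.83, 1.44 and 2.15 FPKM after, a change of -0.13 ± 0.12. Every SOX2 and SOX4 library at 2 h was below every library at 0 h, while the SOX8 libraries overlapped.

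Of 11 tested HES, HEY and ID regulators, 8 fell, with a median of -1.08. The ID proteins, which bind helix-loop-helix activators and keep them off DNA, were all among the fallen genes, with log2 changes of -2.02 for ID1, -1.67 for ID2 and -1.42 for ID3. ID2 was the most abundant of them at 54.9, 56.7 and 53.4 FPKM before the block and 16.7, 11.8 and 14.9 FPKM after it. HEY1 was higher still, at 99.9, 108 and 111 FPKM before and 37.2, 36.4 and 38.3 FPKM after, a change of -1.28 ± 0.04. HES7 was at 1.03, 1.62 and 0.879 FPKM at 0 h and 1.82, 0.417 and 1.86 FPKM at 2 h, so its groups overlapped.

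Among forkhead factors 14 of 24 fell (median -0.66), among HOX genes 18 of 35 (median -0.61), and among Krüppel-like factors 5 of 10 (median -0.83), which were KLF10, KLF5, KLF6, KLF11 and KLF9. FOXC1 had the most even values, at 51.9, 52.2 and 52.6 FPKM at 0 h and 10.5, 10.5 and 10.0 FPKM at 2 h, a change of -2.03 ± 0.02. At the other end of the forkhead list FOXO4 was at 10.7, 10.9 and 10.8 FPKM and then 11.98, 10.6 and 11.5 FPKM, a change of 0.25 ± 0.05. HOXB7 likewise differed by 0.15 ± 0.09 while HOXA6 fell, and KLF13 differed by -0.05 ± 0.08 while KLF10 fell by 1.81. Each of the 3 families thus had members on both sides of the rule.

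BTB-domain zinc-finger factors (ZBTB) had 22 of 36 fallen (median -0.80), from ZBTB6 at -1.72 to ZBTB8A at -0.21. The larger ZNF list had 205 of 374 fallen and 1 risen, ZNF204P (median -0.63), of which 89 were at least 2-fold lower. Nuclear receptors had 8 of 23 fallen (median -0.33), with the orphan receptor NR2F1 lowest at -1.10, and E2F factors had 4 of 10 fallen (median -0.48), with E2F8 lowest at -1.49, followed by E2F3, E2F2 and E2F1. NR2F1 went from 16.9, 12.2 and 14.98 FPKM to 4.74, 5.75 and 5.70 FPKM. No member of the SOX, HES/HEY/ID, forkhead, HOX, Krüppel-like, ZBTB, nuclear receptor or E2F lists rose by the rule. The median of each of these 8 lists and of the ZNF list stayed below 0 under every scaling that was run. Under quantile normalization, where fewer genes were called in all (1145 fallen), 138 ZNF genes (50 at least 2-fold lower), 12 HOX genes, 9 forkhead factors and 4 nuclear receptors fell. As deposited 8 Krüppel-like factors fell. With the trend on length and GC content removed 9 forkhead factors fell. A pseudocount of 5, which shrinks the changes of low genes, left 67 ZNF, 14 ZBTB, 7 HOX, 6 forkhead, 3 SOX, 2 E2F and 2 nuclear receptor genes fallen.

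In the list of Sprouty, SOCS and SMAD regulators 12 of 18 fell and none rose (median -0.86), and 7 fell with a pseudocount of 5. The list also holds NFKBIA, which is among the fallen, and ERRFI1, which is not. SMAD7, the inhibitory SMAD of TGF-β signalling, went from 5.33, 3.79 and 4.35 FPKM to 0.423, 0.803 and 0.536 FPKM, and SPRY2 from 7.20, 7.35 and 7.01 FPKM to 1.03, 0.894 and 1.32 FPKM. SOCS2 differed by 0.14 ± 0.03, at 3.96, 4.28 and 4.11 FPKM before and 3.997, 4.03 and 4.08 FPKM after. Of 12 dual-specificity phosphatases, only some of which switch off MAP kinases, 4 fell: DUSP1, DUSP7, DUSP5 and DUSP16, from -2.22 for DUSP1 to -0.72 for DUSP16. With a pseudocount of 5, 2 fell. Of 35 core MAP kinase pathway members 3 fell (MAPK7, MAP3K1 and MAP3K9) and 1 rose (MAP3K13), and 5 fell without library 3 at 2 h, 9 as deposited, 5 with a pseudocount of 0.1 and none with one of 5. The share fallen was below that over all genes, and the median of -0.07 turned to 0.03 once the trend on length and GC content was removed.

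Wnt receptors and regulators had 12 of 20 fallen and none risen (median -0.69). The scaffold AXIN2, itself a target of the pathway, was lowest, from 4.57, 4.23 and 4.80 FPKM to 0.755, 0.490 and 0.623 FPKM. The Frizzled receptors FZD7 and FZD8 changed by -1.42 and -1.48, and both have a single exon in the annotation used. NKD1 differed by -0.07 ± 0.08. Under quantile normalization 6 of the 20 met the rule, with a pseudocount of 5 only 3 did, and leaving out single libraries gave 12 or 13.

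Among circadian clock genes 8 of 17 fell (median -0.56), a count of 4 with a pseudocount of 5. PER1, a repressor of the clock, went from 11.6, 11.9 and 13.6 FPKM to 4.43, 4.87 and 6.37 FPKM. BHLHE40 had the lowest value of the list at -1.86, but its libraries at 0 h spread from 5.30 to 16.8 FPKM and its standard error was 0.55. NR1D2, a nuclear receptor of the clock, differed by 0.06 ± 0.17. In the list of ATF4 stress response genes 6 of 19 fell and 2 rose, which were the amino acid synthesis genes ASNS and PSAT1. The 2 risen became 1 without library 1 at 2 h, as deposited, under quantile normalization and with the trend on length and GC content removed. PPP1R15A, which restores translation after stress, was lowest at -1.54 ± 0.17, DDIT3 fell by 1.19, and ATF4 itself was at 424, 480 and 441 FPKM before and 450, 400 and 460 FPKM after.

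Of 10 CLK, DYRK and SRPK kinases 6 fell (median -0.79), and besides CLK1 these included CLK4, from 10.3, 9.45 and 7.24 FPKM to 2.58, 2.28 and 2.50 FPKM. DYRK1A went from 14.3, 13.3 and 14.2 FPKM to 2.39, 3.03 and 2.42 FPKM. SRPK1 did not fall, at 63.3, 72.7 and 70.5 FPKM before and 78.3, 83.1 and 78.5 FPKM after. CLK2 met the rule narrowly at -0.60 ± 0.18 and no longer did without library 1 at 0 h (-0.49) or without library 2 at 2 h (-0.47). Of 36 SR and hnRNP proteins none fell and 7 rose, and of 32 core spliceosome proteins none fell and 6 rose. No gene of either list rose as deposited or under quantile normalization, and 2 and 0 rose with the trend on length and GC content removed. Their medians were 0.24 and 0.22, which turned to -0.06 and -0.12 under quantile normalization.

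Cell cycle lists held few called genes, and single regulators stood out from them. Of 34 mitosis genes 2 fell and none rose, with a median of 0.15 that turned to -0.06 as deposited and to -0.10 under quantile normalization, settings in which 4 and 5 fell. The kinase WEE1, which restrains entry into mitosis, was at 21.8, 20.6 and 20.5 FPKM at 0 h and 5.50, 5.12 and 5.11 FPKM at 2 h, a change of -1.63 ± 0.05. The other was FZR1, an activator of the anaphase-promoting complex, at -0.83 ± 0.11. Of 49 replication genes 1 fell and 2 rose, with a median of 0.21 that turned to -0.03 under quantile normalization, and the fallen gene was the licensing factor CDT1 at -0.90 ± 0.12. RPA3, a subunit of the single-strand binding protein of replication, was the highest at 0.67, and a single gene of the list rose without library 1 at 0 h or without library 1 or 2 at 2 h. No replication gene rose as deposited, under quantile normalization or with the trend on length and GC content removed. Of 15 cyclins and inhibitors of G1 only the inhibitor CDKN1B fell, from 22.7, 18.3 and 21.8 FPKM to 4.15, 5.32 and 4.84 FPKM. In the BCL2 family 3 of 15 fell, the death genes BCL2L11 at -0.97 ± 0.02 and BBC3 at -0.95 ± 0.21 and the survival gene MCL1 at -0.78 ± 0.03, from 64.6, 63.4 and 65.4 FPKM to 31.3, 33.6 and 31.6 FPKM. As deposited, 5 of the 15 fell.

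Chromatin and ubiquitin lists were mixed and held single members with large losses. Among Polycomb CBX and PCGF subunits 5 of 19 fell and 1 rose. CBX8, a chromodomain subunit of Polycomb complexes, went from 9.22, 8.90 and 9.41 FPKM to 1.76, 1.51 and 1.74 FPKM, whereas CBX1, a heterochromatin protein, rose from 84.3, 94.8 and 85.7 FPKM to 129, 119 and 114 FPKM. The count of 1 risen became 2 without library 2 or 3 at 0 h or library 3 at 2 h. Of 44 lysine methyltransferases and demethylases 12 fell and 1 rose, with SETD1B lowest at -1.50 and the risen gene KDM1B at 0.61. Of 52 F-box adaptors of ubiquitin ligases 14 fell and 1 rose, and 7 were at least 2-fold lower, whereas FBXO4 rose from 7.15, 8.08 and 7.75 FPKM to 10.1, 12.4 and 10.8 FPKM. Of 64 RNF ubiquitin ligases 16 fell and none rose. With a pseudocount of 5, 9 F-box, 6 RNF and 6 methyltransferase or demethylase genes fell, and under quantile normalization 4 F-box genes were at least 2-fold lower and 2 rose. The lists' medians were -0.08, -0.13, -0.10 and -0.16, near the median gene, so the calls came from a minority of members.

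Solute carriers lay near the median gene. Of 178 solute carriers 13 fell and 2 rose (SLC25A3 and SLC4A5), and their median of -0.09 turned to 0.02 under quantile normalization. The 2 risen became 0 without library 1 and 4 without library 3 at 0 h, and as deposited 25 fell and none rose. With a pseudocount of 5, 6 fell and 1 rose.

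**Figure D3:**
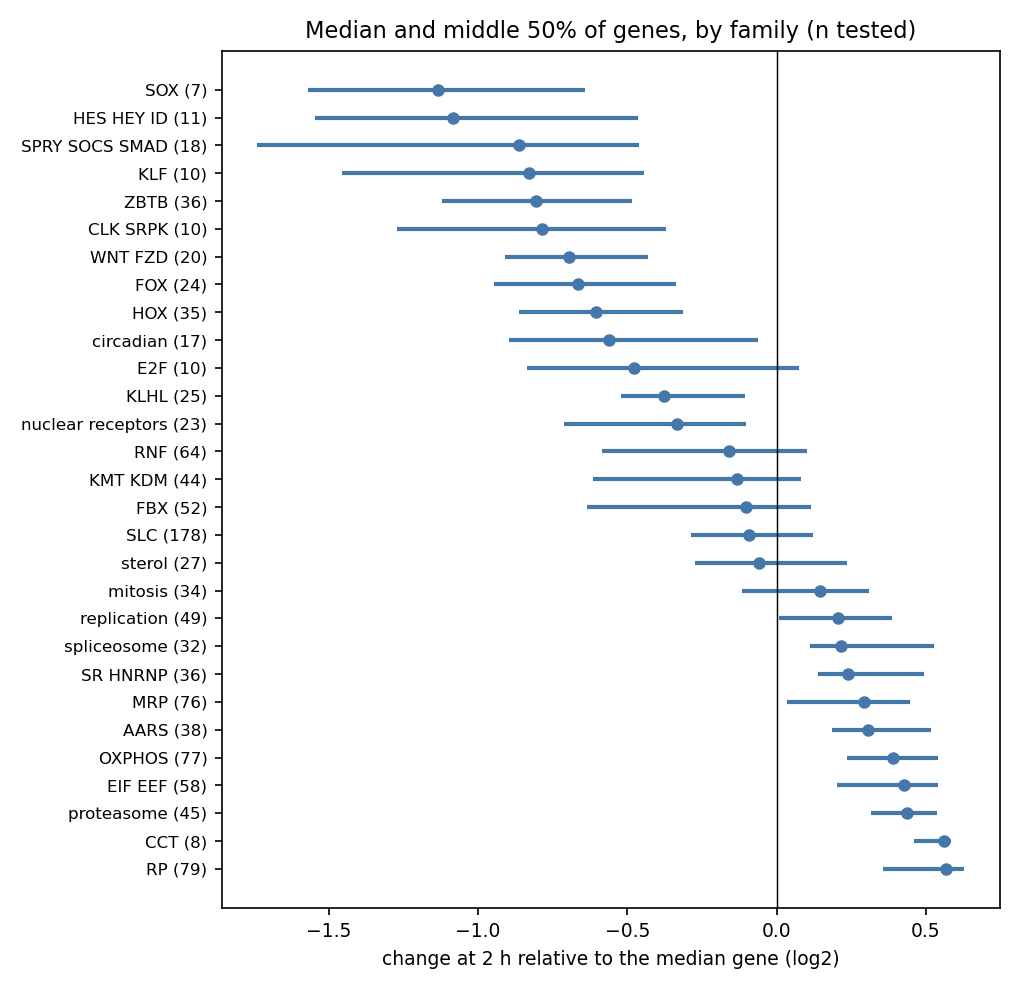
Median change at 2 h relative to the median gene (log2, points) and the middle 50% of genes (bars) for 29 gene lists, with the number of tested genes in brackets. Lists of regulators lie to the left, with SOX factors lowest at -1.13, and lists of translation and respiratory chain genes to the right. Sterol genes lie near the median gene at -0.06. Cytoplasmic ribosomal proteins (RP) are highest at 0.57, a median that fell to -0.000488 under quantile normalization.

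The lists of translation and energy genes had medians above 0, which the ribosomal protein list lost under quantile normalization. Of 79 cytoplasmic ribosomal protein genes none fell and 32 rose, with a median of 0.57. RPS23 was at 182, 232 and 216 FPKM at 0 h and 346, 313 and 329 FPKM at 2 h, and RPL22 at 210, 252 and 219 FPKM and then 396, 341 and 328 FPKM. RPL21 was the lowest member at -0.29 ± 0.53, with libraries from 73.9 to 229 FPKM at 2 h. The size of these rises hung on the scaling and on single libraries: 1 of 79 rose under quantile normalization, where the list's median was -0.000488, and 4 rose on the values as deposited and 4 with the trend on length and GC content removed. The count became 16 without library 1 at 0 h and 18 without library 1 at 2 h. Ribosomal protein genes have many near-identical processed copies, between which the authors' counting could split reads. Their median level at 0 h was 1024 FPKM, in the range where 32.5% of all genes rose. Whether copies or level bear on these rises was not tested.

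Vertebrate ribosomal protein and elongation factor mRNAs begin with a run of pyrimidines, the 5′ terminal oligopyrimidine motif, through which their translation is controlled. The transcription start regions of 5 risen genes of these families are shown because they carry that run: 15 bases before the annotated start and 15 bases from it on, from RefSeq (GRCh38.p14), with the pyrimidine run in capitals. RPS23 is at chr5:82278340-82278369 (minus strand), RPL22 at chr1:6199581-6199610 (minus), RPS24 at chr10:78033848-78033877 (plus), EEF1A1 at chr6:73521018-73521047 (minus) and RPL39 at chrX:119791616-119791645 (minus).
RPS23: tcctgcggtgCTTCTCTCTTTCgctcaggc
RPL22: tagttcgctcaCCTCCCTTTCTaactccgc
RPS24: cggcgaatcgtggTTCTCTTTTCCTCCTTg
EEF1A1: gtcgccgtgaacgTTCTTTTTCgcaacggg
RPL39: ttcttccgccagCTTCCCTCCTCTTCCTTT

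The runs are 12 bases in RPS23, 11 in RPL22, 16 in RPS24, 9 in EEF1A1 and 22 in RPL39, where it goes on past the bases shown. A run of at least 7 C or T bases touching the 5 bases on either side of the start, read on the coding strand, was present in 50 of 64 matched ribosomal protein genes (78.1%). It was present in 15 of 48 matched genes of the translation factor list (31.2%) and in 15.7% of all 27305 RefSeq starts. Among the 8937 matched tested genes the share was 15.8%, against 22.8% of 337 risen genes and 14.8% of 1189 fallen genes. The risen genes include ribosomal protein genes, and their part in the share was not tested. Within the ribosomal protein genes the median change was 0.54 for the 50 with the run and 0.58 for the 14 without it.

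Of 58 genes in the list of translation initiation and elongation factors 11 rose and 3 fell, with a median of 0.43. The list also holds regulators of these factors, such as EIF2AK kinases and EIF4E-binding proteins, and TPT1. EEF1A1, which delivers aminoacyl-tRNA to the ribosome, was highest, at 1842, 2451 and 2284 FPKM before and 3352, 3282 and 3289 FPKM after, a change of 0.81 ± 0.12. Fallen were EIF1AD, EIF2AK3 and EIF4ENIF1, at -1.65, -0.79 and -0.64, none of them a core initiation or elongation factor. EIF1AD went from 17.7, 17.7 and 17.9 FPKM to 4.45, 3.76 and 4.65 FPKM. Leaving out library 1 at 0 h gave 7 risen genes of the list and leaving out library 2 at 0 h gave 17. As deposited 1 rose, under quantile normalization 1 and with the trend on length and GC content removed 5. Of 38 aminoacyl-tRNA synthetase genes 5 rose and 2 fell (median 0.31). The mitochondrial prolyl-tRNA synthetase PARS2, with 2 exons, was lowest, with MARS2 as the other fallen gene, and went from 7.14, 9.28 and 8.15 FPKM to 1.44, 0.968 and 1.804 FPKM. The 5 risen synthetases became 2 without library 1 at 0 h, 9 without library 2 and 8 without library 3 at 0 h.

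Nuclear genes of the respiratory chain had 10 of 77 risen and none fallen (median 0.39), and mitochondrial ribosomal proteins 4 of 76 risen and none fallen (median 0.29). UQCRB, a subunit of complex III, was highest in the first list, from 37.1, 37.5 and 31.2 FPKM to 55.8, 53.7 and 46.9 FPKM. NDUFB7, a subunit of complex I, lay at the opposite end at -0.54 ± 0.15, from 63.9, 77.1 and 91.6 FPKM to 43.0, 44.8 and 48.9 FPKM, without meeting the size limit. The 10 risen became 6 without library 1 at 0 h or library 1 at 2 h, and 18 without library 2 at 0 h or library 3 at 2 h. The 4 risen mitochondrial ribosomal proteins became 1 without library 1 of either time and 7 without library 3 at 2 h. Proteasome genes had 6 of 45 risen and none fallen (median 0.44), with 3 risen without library 1 of either time and 11 without library 3 at 2 h. The chaperonin CCT had 2 of 8 subunits risen, CCT8 and TCP1 (median 0.56), a count of 1 without library 1 at 0 h and of 5 without library 2 or 3 at 0 h or library 3 at 2 h. On the values as deposited, where 56 of all 12166 genes rose, no gene of these 4 lists or of the aminoacyl-tRNA synthetases rose. Under quantile normalization, where 395 of all genes rose, 2 respiratory chain genes rose and none of the other 4 lists. With the trend on length and GC content removed 4 respiratory chain, 2 proteasome and 1 mitochondrial ribosomal protein gene rose, and none of the other lists. The medians of these 5 lists and of the translation factor list stayed above 0 under every scaling that was run.

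ASNS, the enzyme of asparagine synthesis and 1 of the 15 highest well-expressed genes described next, was at 63.4, 70.3 and 57.0 FPKM at 0 h and at 129, 81.5 and 121 FPKM at 2 h. Its 2 h libraries lay above all 0 h libraries but spread widely, with a change of 0.97 ± 0.22. LDHB, the B subunit of lactate dehydrogenase, went from 1027, 1308 and 1287 FPKM to 1933, 1828 and 1739 FPKM, and its relative LDHC from 3.63, 5.65 and 4.95 FPKM to 9.38, 7.91 and 6.57 FPKM. OARD1, which removes ADP-ribose from proteins, went from 8.91, 12.7 and 9.28 FPKM to 18.1, 18.1 and 17.4 FPKM, and the centrosomal centrin CETN3 from 29.1, 38.1 and 36.0 FPKM to 63.2, 50.7 and 54.5 FPKM. The neurofilament gene NEFM changed by 0.87 ± 0.29, POLR3GL, a subunit of RNA polymerase III, by 0.85, the tRNA ligase cofactor ZBTB8OS by 0.83, the arsenite methyltransferase AS3MT by 0.82 and CCDC73 by 0.86.

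FAM45A changed by 1.00 ± 0.32 and CCZ1 by 0.82. Both have a near-identical copy elsewhere in the genome, so reads could have been divided between copies, which was not tested. SPA17, a sperm protein also found in other tissues, changed by 0.82. All 15 genes met the rule on the values as deposited, 12 met it under quantile normalization, where LDHB stood at 0.22 and RPS23 at 0.35, and 8 met it with the trend on length and GC content removed. With a pseudocount of 5, 12 met it. With same-numbered libraries taken as pairs, where every pair had to pass the fold limit, 9 were called. Leaving out library 1 at 0 h kept 14 of the 15 and every other omission of a library kept all 15.

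Noncoding transcripts that carry small nucleolar RNAs in their introns were split. Of 17 host genes 3 fell (SNHG7, SNHG15 and SNHG12) and 2 rose (SNHG8 and SNHG5). SNHG7 went from 41.2, 45.7 and 44.1 FPKM to 10.0, 9.65 and 12.3 FPKM and SNHG12 fell by 1.397 on the log2 scale, whereas SNHG8 rose from 147, 171 and 139 FPKM to 226, 225 and 202 FPKM. No host gene rose as deposited, under quantile normalization or with the trend removed. GAS5 and SNHG1 differed by 0.14 ± 0.22 and -0.03 ± 0.15. Of 142 other long noncoding RNAs 9 fell and 2 rose (RUSC1-AS1 and LINC00665), and with a pseudocount of 5 only 2 fell and none rose. The lowest was MIR17HG, the host transcript of the miR-17 cluster, from 20.0, 11.2 and 11.3 FPKM to 1.37, 1.56 and 1.47 FPKM. The 2 risen became 5 without library 1 at 0 h, 1 without library 3 at 0 h and 7 without library 2 at 2 h, and 11 rose under quantile normalization.

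The nuclear RNAs MALAT1 and NEAT1 did not meet the rule with all libraries. MALAT1 was at 51.9, 16.9 and 17.1 FPKM at 0 h and 52.4, 29.1 and 31.6 FPKM at 2 h, so library 1 at 0 h alone lay in the 2 h range. Without that library its change was 1.25 and met the rule, against 0.74 ± 0.58 with it. Levels of small RNA genes in poly(A) libraries were given no reading here: 137 passed the filter, 114 of them were listed at 0 in at least 1 library, and their 16 fallen became 55 without library 2 at 2 h.

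Among 9 properties of the genes, the density of exons had the largest correlation with the change. For each of the 11388 tested protein-coding genes with a GENCODE 29 transcript (GRCh38), the number of exons was divided by the length of the coding sequence in kilobases. This exon density was picked after the values had been seen. Its Spearman correlation with the change was 0.55 across genes, which all share the same 6 libraries and are not independent. In the 9 pairings of a 2 h with a 0 h library it lay between 0.503 and 0.534. In comparison it was 0.12 for the number of exons alone, -0.24 for transcript length, -0.28 for coding length, -0.28 for GC content, -0.12 for 3′UTR length and -0.097 for 5′UTR length.

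Among the decile of genes with the fewest exons per coding kilobase (1142 genes, up to 2.78 per kb) 599 fell (52.5%) and 2 rose, with a median of -0.61. Among the decile with the most (1137 genes, at least 11.1 per kb) 21 fell (1.85%) and 128 rose (11.3%), with a median of 0.29. The shares moved steadily between these ends: 33.1%, 18.8%, 10.6% and 6.06% fell in deciles 2 to 5. Of the 534 protein-coding genes that were at least 2-fold lower, 402 belonged to the lowest 2 deciles and 31 to the upper 5. Of the 433 protein-coding genes that rose, 8 belonged to the lowest 2 deciles. Among the 206 genes with a single exon 99 fell (48.1%) and 5 rose.

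**Figure D4:**
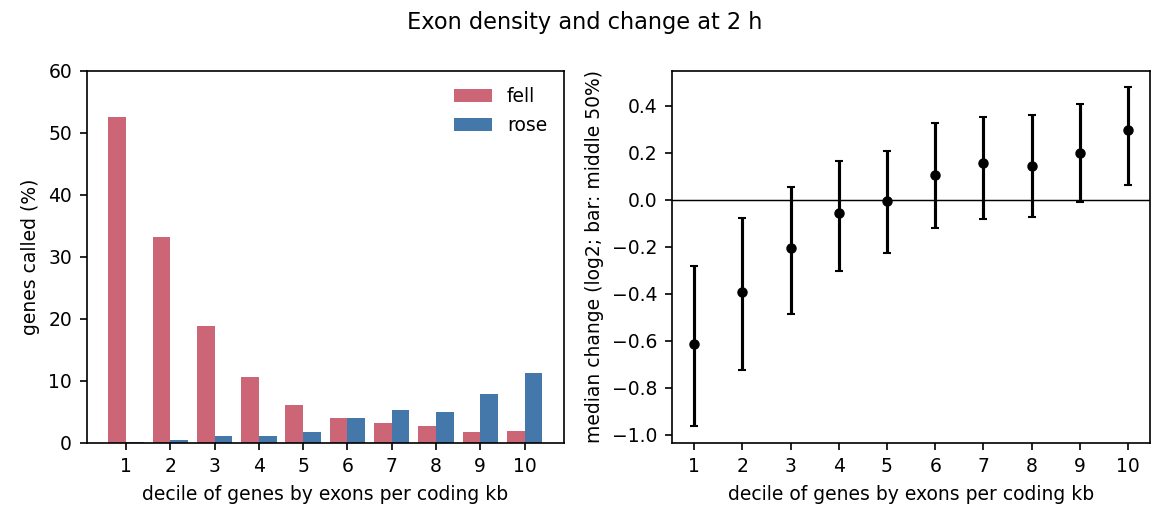
Protein-coding genes in deciles by exons per kilobase of coding sequence (1 is the fewest). Left, the percentage that fell (red) or rose (blue), from 52.5% fallen in the first decile to 1.85% in the last; right, the median change relative to the median gene (log2) with bars over the middle 50% of genes, from -0.61 to 0.29.

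The correlation was then taken within classes of genes. Without ZNF and ZBTB genes, whose median exon densities were 2.75 and 1.95 per kb, the correlation was 0.52. Without cytoplasmic and mitochondrial ribosomal protein and respiratory chain genes it was 0.54, and among genes with at least 2 exons 0.54. It was 0.54 below 5 FPKM, 0.50 from 5 to 50 FPKM and 0.29 at 50 FPKM or more. By coding length it was 0.43 up to 1 kb, 0.52 from 1 to 2 kb and 0.55 above 2 kb. With the trend on length and GC content removed it was 0.45, and under quantile normalization 0.42. In those 2 settings 46.1% and 37.9% of the lowest decile fell, and 1.93% and 6.42% of the highest decile rose. As deposited, 1.14% of the highest decile rose.

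Fallen genes with many exons and risen genes with few exons per kilobase were named after their values were seen. Among the 431 fallen genes with at least 10 exons, CLK1 (13 exons) and PPP1R10 (20 exons) were lowest. Others were DYRK1A (11 exons) and TICRR (22 exons), a factor for the start of replication that fell by 1.77. PPRC1, a coactivator for nuclear genes of mitochondrial proteins, fell by 1.69 with 14 exons, and BRPF1, a scaffold of a histone acetyltransferase, fell by 1.68 with 13. By exon density only CLK1 (8.94 per kb) and PPP1R10 (7.09) of these 6 lay outside the lowest 3 deciles. TICRR (3.84), PPRC1 (2.80) and BRPF1 (3.57) were in decile 2 and DYRK1A (4.86) in decile 3, so these followed the pattern. The 2 risen genes of the lowest decile of exon density were NEFM (3 exons) and CDR1 (1 exon), and without strand the reads of CDR1 and of the RNA antisense to it cannot be told apart. TUBA1A (4 exons) and SYNC (5 exons) were among the 6 risen genes of the second decile. TUBA1A, an alpha-tubulin, was at 42.9, 48.6 and 44.96 FPKM before and 68.5, 52.6 and 62.1 FPKM after.

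AU-rich elements in the 3′UTR are bound by proteins of the ZFP36 and other families and are known to speed decay. Short stretches around such an element are shown for 6 of the lowest fallen genes with the nonamer TTATTTATT in the annotated 3′UTR, to let the motif be read in place. Each is 30 bases of the transcript strand from GENCODE 29 (GRCh38), with the nonamer in capitals. IER5 is at chr1:181092443-181092472 (plus strand), DLX2 at chr2:172099502-172099531 (minus), ZFP36L2 at chr2:43223447-43223476 (minus), TIPARP at chr3:156705515-156705544 (plus), TRIM11 at chr1:228393708-228393737 (minus) and ZBTB6 at chr9:122908389-122908418 (minus).
IER5: gtgtcttcctTTATTTATTtatttatttaa
DLX2: tattttggggTTATTTATTatgaaaacaac
ZFP36L2: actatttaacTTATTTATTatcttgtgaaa
TIPARP: aggattctatTTATTTATTtacgtttgata
TRIM11: cccctctgctTTATTTATTgtaagcattcc
ZBTB6: attatttataTTATTTATTcctgttcagta

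IER5 holds 3 such nonamers, overlapping ones included, TIPARP 2 and the other 4 genes 1 each. ZFP36L2, which itself binds AU-rich elements, went from 20.1, 19.02 and 21.6 FPKM to 2.60, 3.24 and 3.83 FPKM. TIPARP, an enzyme that attaches ADP-ribose to proteins, went from 9.25, 8.52 and 9.72 FPKM to 1.41, 1.41 and 1.28 FPKM. TRIM11, a ubiquitin ligase, fell by 1.91 on the log2 scale. In all 3 the libraries at 2 h lay below those at 0 h.

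Over the 11296 protein-coding genes with an annotated 3′UTR, longer forms of the motif were more frequent in genes that lost more. The nonamer was found in 12.6% of the decile of genes with the lowest change, in 5.48% of the decile with the highest and in 8.69% of all. The heptamer TATTTAT was found in 43.2%, 23.9% and 33.8%, and the pentamer ATTTA, which lies inside both, in 77.3%, 71.5% and 71.5%. The 3′UTRs differed in length, with medians of 1420 bases in the lowest decile and 774 in the highest. Per kilobase of 3′UTR the heptamer occurred 0.393 times in the lowest decile and 0.275 times in the highest, against 0.325 in all, while the pentamer occurred 2.25 and 2.56 times. The Spearman correlation of the change with heptamers per kilobase was -0.10, smaller in size than that with exon density. Most genes of the lowest decile held no nonamer, and a match gives only the letters in the annotated 3′UTR.

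**Figure D5:**
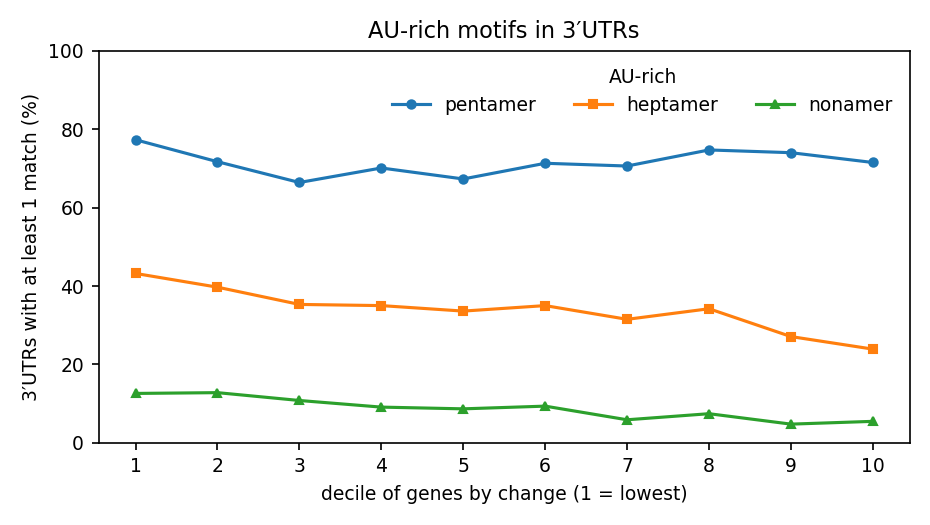
Share of 3′UTRs with at least 1 match to the AU-rich pentamer ATTTA, heptamer TATTTAT or nonamer TTATTTATT, in deciles of protein-coding genes by change at 2 h (1 is the lowest change). The heptamer goes from 43.2% in the first decile to 23.9% in the last and the nonamer from 12.6% to 5.48%, while the pentamer is at 77.3% and 71.5%.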

How the data were processed

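The FPKM values used are those the authors deposited, 1 column per library, in a table for each time. Trimmomatic 0.36, Bowtie2 2.2.3, CASAVA 1.8.2 and the hg19 build are named in the submitters' processing notes; the program that made the FPKM values is not given in the sources used here. Libraries of the vehicle groups were divided by their median ratio to the geometric mean library, and changes of mean log2(FPKM + 1) were read from the median gene. A pseudocount of 1 understates changes of low genes. No test was made between the separately scaled tables. In simulated data built on these 12166 genes, 50 genes were given each log2 change. Of these, 100% of those given -2 and 98% of those given -1 were called. Changes were given only to genes above about 5 FPKM at 0 h, so these rates do not cover lower genes. Among the genes used, rates were not read by level.

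Gene members and lists were chosen with earlier results of these data known. Named were the 15 lowest and 15 highest called genes of at least 5 FPKM that an earlier account did not give, the extremes of each list and a fixed set of reference genes; other genes were chosen after their values were seen. Exons, coding lengths and 3′UTRs came from GENCODE 29 by symbol (97.4% of tested genes matched), promoters from RefSeq. Alternatives changed the pseudocount, filter, scaling and libraries, removed the length and GC trend, or paired libraries. Python 3.11.15, pandas 2.3.3, numpy 2.4.6 and scipy 1.17.1 were used. Some results are not reported here.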

Additional observations from a re-analysis of the deposited data

How the results depend on the processing

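All 4 counts and the exon density correlation were recomputed under each alternative, and 63 of 85 values stayed within 1.5 times (counts) or the spread of library pairs (correlation). With a pseudocount of 0.1, 961 genes were at least 2-fold lower (main 559); with 5, 604 and 117 genes were at least 1.5-fold and 2-fold lower and 285 and 18 higher. A filter at 5 FPKM left 180 and 10 higher genes and a correlation of 0.51. As deposited, 56 and 12 genes were higher. The 2-fold higher count was 15 with the filter at 0 h, 20 with trimmed-mean scaling and 12 without small RNA genes. With the length and GC trend removed 138 genes rose and the correlation was 0.45; under quantile normalization it was 0.42. Leaving out single libraries gave 288 to 734 risen genes and 17 to 45 at least 2-fold higher, and correlations of 0.54 to 0.55.

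Same-numbered libraries of the 2 times did not deviate together (correlations of 0.00387, -0.0166 and 0.0158), so no effect shared by number was visible. This does not settle whether the numbers pair the samples, since the labels do not say and there are only 3 libraries per time. With the replicate number as a block, a gene was called only where each of the 3 same-numbered differences passed the fold limit. This is stricter on size than the main limit on the mean, and overlap of libraries was not read. By this rule 1088 genes fell, of which 1085 fell in the unpaired comparison, and 400 were at least 2-fold lower. It gave 74 risen genes and 7 at least 2-fold higher. Because the rule differs, these counts do not show the effect of pairing alone.

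Of 80 list medians, 35 changed sign in at least 1 setting. Among medians over 2 times their spread between libraries this gave 15 values: as deposited, phosphatase subunits (-0.0517), lysosomal (-0.0158), decay (-0.0651) and tubulin genes (-0.0493); under quantile normalization phosphatase subunits (-0.0425), replication (-0.0318), ribosomal protein (-0.000488), nucleotide synthesis (-0.00868), lysosomal (-0.0150), SR and hnRNP (-0.0570), decay (-0.0690), importin (-0.0238) and vesicle coat genes (-0.00956); with the trend removed MAP kinase (0.0254) and decay genes (-0.00604). Another 61 changes were in medians nearer 0. Of 80 counts of fallen genes by list, 16 moved by over 1.5 times under quantile normalization, 22 as deposited, 30 with a pseudocount of 5, 19 with the filter at 5 FPKM (fewer genes tested) and 11 with the block; of risen genes 27, 21, 6, 21 and 22. Causes were not tested. Trimmed-mean factors and quantile normalization were computed in numpy, not with edgeR and limma as planned. Depth differed between times, and small RNA genes with zeros limit the higher counts.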
